A study of Mus musculus with 19 samples.

Results

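This report describes 10 genes of neutrophils and of the signals that draw them into tissue, in livers of male C57BL6J mice. The age in the study's methods, 6 to 8 weeks, cannot be that at sacrifice, given the course of treatment below. The genes are S100a8, S100a9, Ngp, Retnlg, Csf3r, Cxcr2, Il1r2, Cxcl1, Cxcl2 and Il1b, taken by name from a table of 31053 genes in which all 10 were found. Poly(A) RNA of whole liver was read from its 3′ end in 19 libraries, which the labels number as biological replicates and which are taken here as 1 mouse each. The PBS group (n = 5) is labelled with PBS alone, without thioacetamide (TAA), a hepatotoxin that causes liver fibrosis. The GFP group (n = 7) received increasing doses of TAA over 12 weeks and the vector AAV8-TBG-eGFP. The miR-34b/c group (n = 7) had the same TAA course with a pair of vectors of that type, which carried miR-34b and miR-34c in place of eGFP. By the labels, vectors were injected after 10 weeks of TAA and the mice were sacrificed 4 weeks later. The TBG promoter drives expression in hepatocytes. Since the PBS mice are labelled with neither TAA nor a vector, TAA and vector cannot be told apart in a comparison with them. Whether miR-34b/c and GFP livers differ is the comparison in which the delivered RNA alone differs by label.

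Neutrophils are short-lived white blood cells made in the bone marrow and drawn into injured tissue by chemokines. They are packed with granules of antimicrobial proteins, whose genes are mostly transcribed in immature cells of the marrow, while mature cells in tissue carry abundant S100a8 and S100a9 RNA. Cxcl1 and Cxcl2 are chemokines that bind Cxcr2 on neutrophils, Csf3r receives the growth factor that drives their production, and Il1b is an inflammatory cytokine that Il1r2 captures as a decoy receptor. In bulk tissue, more cells of a type and more RNA per cell cannot be told apart.

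The 10 genes lie on 7 chromosomes of GRCm38, and values below are for whole genes. S100a8 (ENSMUSG00000056054, chr3:90668978-90670035, plus strand) and S100a9 (ENSMUSG00000056071, chr3:90692632-90695721, minus strand) are neighbours with 22596 bases between them. Cxcl1 (ENSMUSG00000029380, chr5:90891241-90893115) and Cxcl2 (ENSMUSG00000058427, chr5:90903871-90905938) are both on the plus strand with 10755 bases between them. Cxcr2 (ENSMUSG00000026180, chr1:74153989-74161246) and Il1r2 (ENSMUSG00000026073, chr1:40074079-40125231) are on the plus strand of chromosome 1. Ngp (ENSMUSG00000032484) is at chr9:110419747-110423012, Retnlg (ENSMUSG00000022651) at chr16:48872621-48874496 and Csf3r (ENSMUSG00000028859) at chr4:126024550-126044440, all on the plus strand. Il1b (ENSMUSG00000027398) is at chr2:129364570-129371139 on the minus strand. In the GENCODE annotation of that build, Il1r2 and Il1b overlap other genes. The antisense gene over Il1r2 had 3 counts in all libraries together and the one over Il1b had 0.

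Upstream sequences are shown for the neighbouring chemokine genes, which share a motif and differ widely in counts, as given below. The stretch of 250 bases before each RefSeq start site (GRCm38.p6, plus strand) is chr5:90890995-90891244 for Cxcl1 and chr5:90903649-90903898 for Cxcl2. Capitals mark the 10 letters GGGANTTTCC, a form of the site bound by NF-κB, a transcription factor of inflammation.
Cxcl1: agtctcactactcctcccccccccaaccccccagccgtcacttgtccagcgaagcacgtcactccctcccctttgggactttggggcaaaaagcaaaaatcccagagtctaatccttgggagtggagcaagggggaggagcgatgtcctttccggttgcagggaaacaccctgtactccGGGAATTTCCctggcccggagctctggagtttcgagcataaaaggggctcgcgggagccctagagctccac
Cxcl2: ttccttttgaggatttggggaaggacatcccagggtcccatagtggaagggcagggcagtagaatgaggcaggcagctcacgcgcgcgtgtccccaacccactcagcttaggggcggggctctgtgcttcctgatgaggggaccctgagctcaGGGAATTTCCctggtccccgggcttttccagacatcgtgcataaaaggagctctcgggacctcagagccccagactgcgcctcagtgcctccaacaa
The match begins 71 bases before the start site in Cxcl1 and 97 bases before it in Cxcl2, with the same letters in both. Of the 10 genes only these hold it in that window on either strand, and 117 of 32851 promoter windows of that length do (0.356%). The motif was chosen after these sequences were seen, and a match is a description of letters, not of binding.

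The delivered microRNA 34b-5p (RefSeq, GRCm38.p6, chr9:51103610-51103632, minus strand) is shown with its seed, bases 2 to 8, in capitals, because the seed is what would pair with a target transcript.
miR-34b-5p: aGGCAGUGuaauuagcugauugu
The letters CACTGCC, which pair with that seed, are in the longest coding transcript of 0 of the 10 genes and of 6720 of 21877 genes (30.7%). The transcripts of the 10 genes were shorter, with a median of 1289 bases against 2681, and no match says only that these letters are not there.

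Libraries held 2214073 to 5208405 counts, with medians of 2858900 in PBS, 3116304 in GFP and 3040202 in miR-34b/c livers. Some libraries of 1 group resembled each other closely. Of 52 pairs within groups, 9 had a coefficient of variation between the 2 libraries under 0.2, and the other 43 lay between 0.201 and 0.446. It is the variation beyond counting noise, estimated in common for genes with a mean count of 50 or more. In miR-34b/c livers the close pairs were libraries 1 and 2, 3 and 4, and 5 and 7, with values of 0.0729 to 0.122. Nothing in the labels says that such mice shared a cage, day or pool, so each library was counted as 1 mouse and results are also given with 7 close pairs summed, which leaves 3 PBS, 5 GFP and 4 miR-34b/c samples. Some results are likewise given without miR-34b/c libraries 1 and 2, which stood highest in most neutrophil genes. They held 74.7% of the group's summed CPM for Ngp. Without them neither Ngp nor Retnlg could be fitted against PBS. Against GFP, Ngp was fitted neither with all libraries nor without these.

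**Figure D1:**
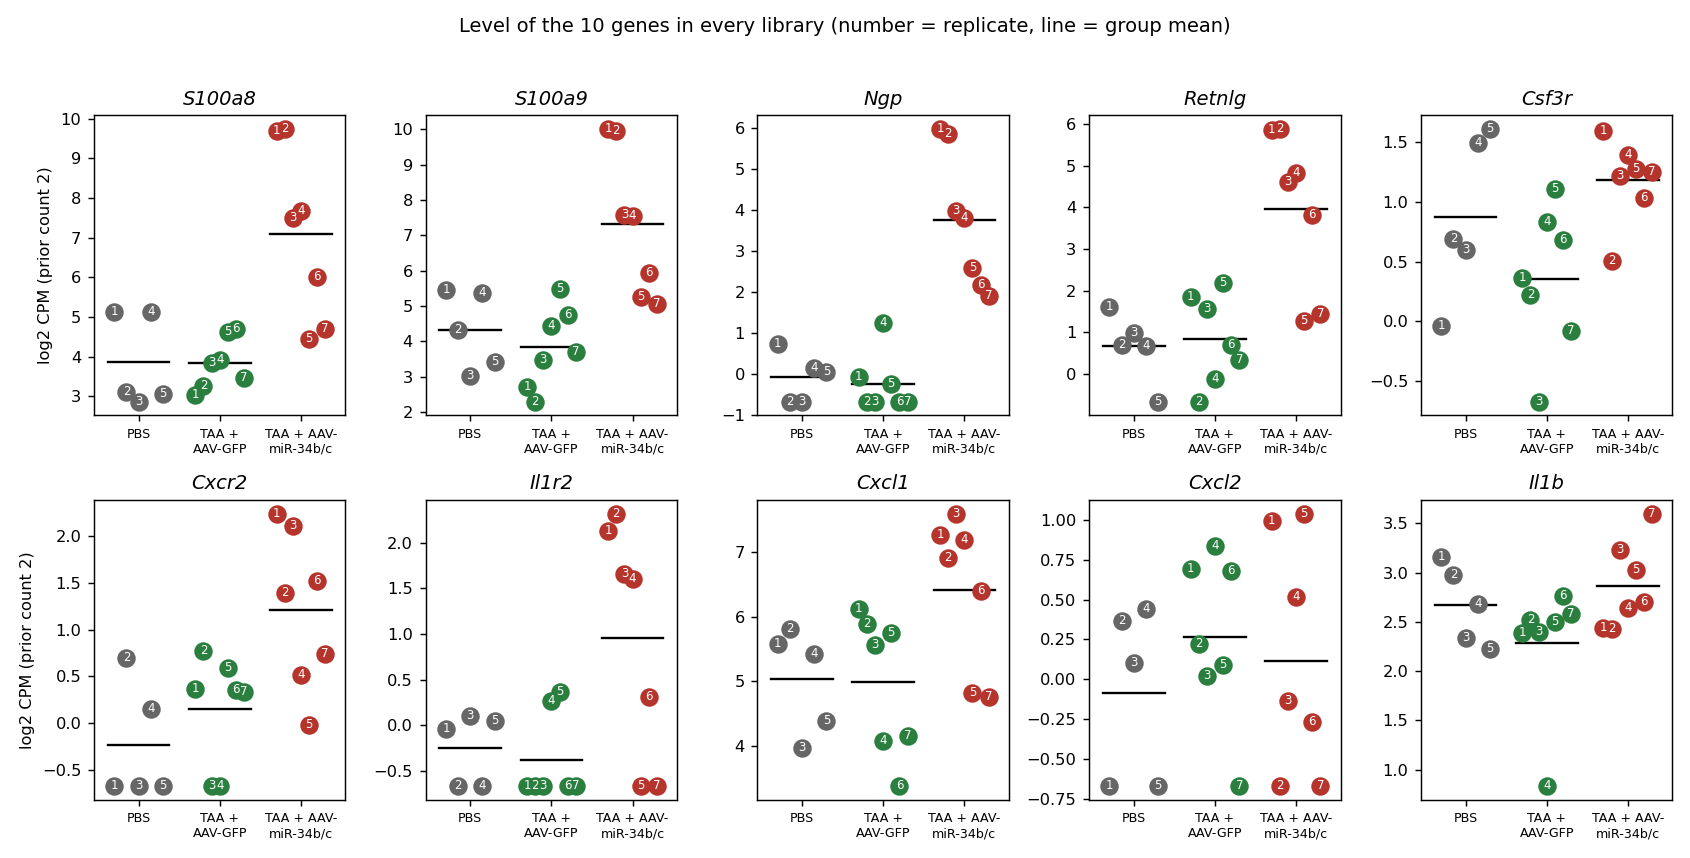
Level of each gene in every library as log2 CPM (prior count 2), with 1 point per mouse labelled by replicate number and a line at the group mean. S100a8, S100a9, Ngp and Retnlg stand highest in miR-34b/c libraries 1 and 2, then in 3 and 4, and Ngp is the only gene whose miR-34b/c libraries all lie above both other groups.

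The 4 granule and cytosol genes were far higher on average in the miR-34b/c group than in the GFP group, by 15.7- to 20.5-fold for the 3 that could be fitted, and overlapped between the GFP and PBS groups. S100a8 and S100a9 encode the subunits of calprotectin, a calcium- and zinc-binding protein that makes up much of the neutrophil cytosol. Levels and fold changes of the 10 genes, here and below, are descriptions, because the genes were picked for their levels in these groups.

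S100a8 was at 34.2, 7.91, 6.65, 34.4 and 7.68 CPM (the count per scaled library total, with scaling over all 19 libraries) in the PBS livers. In GFP livers it ranged from 7.59 to 25.4 CPM with a median of 13.6. In miR-34b/c livers it was at 819.7, 855, 180.3, 203, 21.1, 63.2 and 25.1 CPM in libraries 1 to 7. Libraries 1, 2, 3, 4 and 6 lay above every library of both other groups, while libraries 5 and 7 lay within their range. The mean was 18.2 ± 14.7 CPM (SD, n = 5) in PBS, 14.9 ± 7.13 (n = 7) in GFP and 309.6 ± 367.6 (n = 7) in miR-34b/c livers. The fitted log2 fold change of S100a8 was 4.36 ± 0.75 (SE) between miR-34b/c and GFP, and 4.06 ± 0.92 between miR-34b/c and PBS. Without libraries 1 and 2 these were 2.69 ± 0.48 and 2.38 ± 0.59, so that the size of the difference, but not its direction, rested on that pair.

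S100a9 was at 43.5, 19.4, 7.54, 40.7 and 10.1 CPM in PBS livers and between 4.30 and 43.7 CPM, with a median of 12.3, in GFP livers. In miR-34b/c livers 1 to 7 it was at 1027, 983, 188.2, 187.3, 37.9, 61.0 and 32.8 CPM. The same libraries as for S100a8 lay above both other groups, with the same ones inside their range. The log2 fold change of S100a9 was 4.31 ± 0.80 against GFP and 3.87 ± 0.89 against PBS, and fell to 2.47 ± 0.51 and 2.02 ± 0.50 without libraries 1 and 2. The subunits moved together between mice. While the S100a8 count differed 40.7-fold between the highest and the lowest library of the miR-34b/c group, that group had 0.557 to 1.08 S100a8 counts for each S100a9 count, against 0.407 to 0.882 in PBS and 0.55 to 2.06 in GFP livers.

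Ngp, the neutrophilic granule protein of immature neutrophils, had at most 6 counts in any library outside the miR-34b/c group. It had 3, 0, 0, 2 and 1 counts in the PBS libraries, and 1, 0, 0, 6, 1, 0 and 0 in the GFP libraries. In miR-34b/c libraries 1 to 7 it had 182, 144, 53, 33, 15, 19 and 9 counts, or 62.1, 57.3, 14.95, 13.2, 5.36, 3.85 and 3.14 CPM. Every miR-34b/c library lay above every library of both other groups. Between groups, summed counts were 455 against 8 in GFP livers, a ratio of 52.7 (95% exact counting interval 26.5 to 123). The interval covers counting error only and not the spread between mice. GFP library 4 held 6 of the 8 counts, so the size of the ratio rests largely on that library. The log2 fold change against PBS was 5.68 ± 1.04. In the comparison with GFP, Ngp did not pass the filter on low counts and was not fitted.

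Retnlg, which encodes a resistin-like protein of neutrophils, was at 7, 3, 3, 4 and 0 counts in PBS and from 0 to 18 counts in GFP libraries. It was at 57.7, 58.5, 23.7, 27.6, 1.79, 13.4 and 2.09 CPM in miR-34b/c livers 1 to 7. As with S100a8, libraries 5 and 7 overlapped the other groups and the remaining 5 libraries did not. The log2 fold change was 3.97 ± 0.74 against GFP and 4.47 ± 0.87 against PBS, and 3.03 ± 0.67 against GFP without libraries 1 and 2.

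The receptors were close to the limit of detection and none of the 3 passed the filter in any comparison. Csf3r, the receptor for granulocyte colony-stimulating factor, had 1, 3, 2, 9 and 6 counts in PBS, 2, 2, 0, 4, 7, 3 and 1 in GFP and 7, 2, 6, 5, 5, 7 and 5 in miR-34b/c libraries. Its ratio of summed counts per total was 1.81 (1.01 to 3.32) against GFP and 1.07 (0.612 to 1.93) against PBS, and the groups overlapped in both. Its order over the mice was not that of the granule genes. The miR-34b/c libraries spanned 0.795 to 2.39 CPM, and library 2, highest for S100a8, was lowest for Csf3r.

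Cxcr2, through which Cxcl1 and Cxcl2 act, had 0, 3, 0, 2 and 0 counts in PBS, 2, 4, 0, 0, 4, 2 and 2 in GFP and 12, 5, 13, 2, 1, 11 and 3 in miR-34b/c libraries. The ratio was 3.11 (1.69 to 6.12) against GFP and 5.72 (2.29 to 18.4) against PBS. Libraries 1, 2, 3 and 6 exceeded every GFP library. Il1r2, the decoy receptor for interleukin 1, had 1, 0, 1, 0 and 1 counts in PBS, 0, 0, 0, 2, 3, 0 and 0 in GFP and 11, 11, 9, 6, 0, 3 and 0 in miR-34b/c libraries. Its ratio was 7.42 (2.93 to 24.1) against GFP. Libraries 1 to 4 lay above all GFP libraries, and libraries 5 and 7 were at 0 counts.

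Of the attractants and the cytokine, Cxcl1 had the most counts and the largest difference between the groups. Cxcl1, a chemokine that hepatocytes as well as stromal and immune cells can make, was at 47.3, 55.7, 15.1, 42.4 and 20.2 CPM in PBS and from 9.75 to 69.3 CPM, with a median of 46.5, in GFP livers. In miR-34b/c livers it was at 153, 119, 194, 145, 27.5, 83.5 and 26.5 CPM. Libraries 1, 2, 3, 4 and 6 lay above both other groups and libraries 5 and 7 within them, as for S100a8, S100a9 and Retnlg but not Ngp, and the highest was library 3. The log2 fold change of Cxcl1 was 1.45 ± 0.46 against GFP, 1.55 ± 0.46 against PBS and 0.10 ± 0.41 for GFP against PBS. Without libraries 1 and 2 it was 1.28 ± 0.49 against GFP, so that unlike S100a8 it depended little on them.

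Cxcl2, the neighbour of Cxcl1 with the same motif in its upstream window, was at 0 to 4 counts in every library, and its mean in GFP livers was 0.64 ± 0.413 CPM (SD, n = 7). For Cxcl1 that mean was 38.6 ± 23.9 CPM, both from 3′ reads and not divided by length. The ratio of Cxcl2 was 0.742 (0.317 to 1.70) between miR-34b/c and GFP. Il1b was at 24, 22, 10, 24 and 10 counts in PBS, 4 to 23 in GFP and 14, 12, 31, 14, 21, 29 and 33 in miR-34b/c libraries. Its log2 fold change was 0.59 ± 0.31 against GFP, 0.22 ± 0.30 against PBS and -0.38 ± 0.34 for GFP against PBS, and all groups overlapped. The order of the mice differed from that of the granule genes, since Il1b was highest in miR-34b/c library 7 (11.51 CPM) and lowest in libraries 1 and 2 (4.78 and 4.77 CPM).

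**Figure D2:**
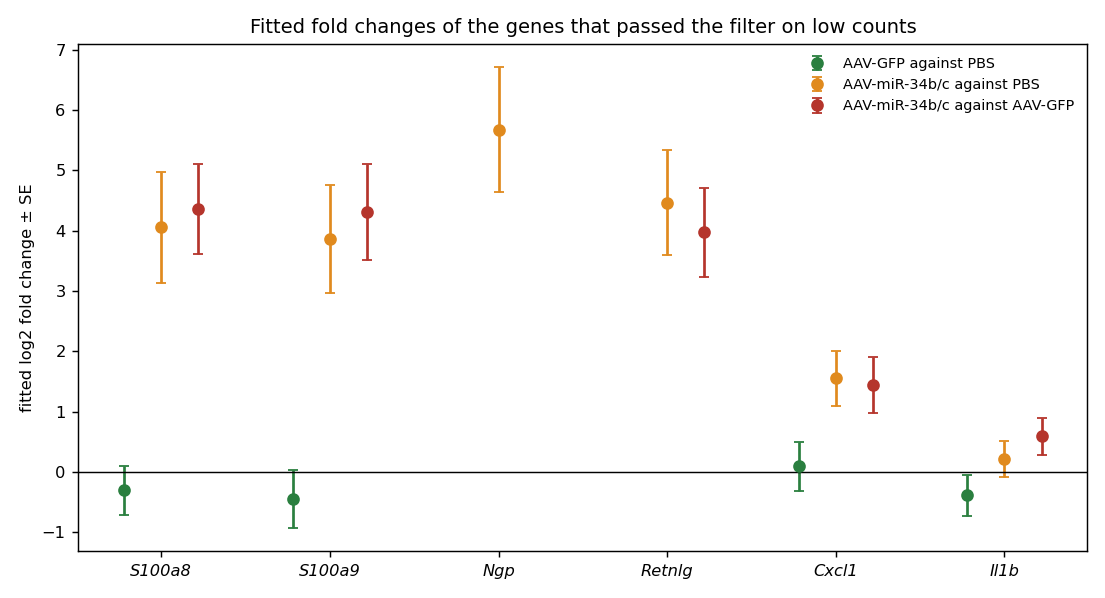
Fitted log2 fold changes with their standard errors for the genes that passed the filter on low counts, in each of the 3 comparisons (edgeR). S100a8 and S100a9 are near 4 in both comparisons with miR-34b/c livers and near 0 between GFP and PBS, while Cxcl1 is near 1.5 and Il1b within 0.6 of 0.

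Counted over the 10 genes, 4 passed the filter between GFP and PBS and 0 of them passed an adjusted p of 0.05 by edgeR's quasi-likelihood test or by any alternative (0 also at an unadjusted p under 0.05), where 12.7% of all 9522 genes tested did. Between miR-34b/c and PBS, 6 were tested and 5 were called higher (S100a8, S100a9, Ngp, Retnlg and Cxcl1), where 21.9% of 9290 genes were called and 12.2% called higher. Between miR-34b/c and GFP, 5 were tested and 3 were called higher (S100a8, S100a9 and Retnlg), where 3.36% of 9252 genes were called and 1.95% called higher. Nothing is read from these counts, because the rule used the same contrasts, and because Ngp and Retnlg passed the filter only through the group in which they were high. The median difference of mean log2 CPM over all 10 genes was 1.39 against GFP. The median fold change over all genes tested was -0.01, a different measure, since it is fitted and covers only genes that passed the filter. The miR-34b/c and GFP groups did not overlap in 1 of the 10 genes (Ngp), and in 1.38% of all genes tested. Between miR-34b/c and PBS they likewise did not overlap in 1 (Ngp), with 7.78% of all genes tested. The counts moved with the setting. Cxcl1 was not counted against PBS without PBS library 3, 4 or 5, without miR-34b/c library 3, with limma-voom or with close pairs summed, at log2 fold changes of 1.34 to 1.76 over all alternatives. With close pairs summed S100a8 and S100a9 were not counted against PBS, nor S100a9 against GFP, and Ngp was counted in both. With replicate number as a block 0 of the 10 genes were counted against GFP, with S100a8 at a log2 fold change of 3.25. Retnlg was also not counted against GFP with limma-voom.

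Other genes known in neutrophils were drawn from lists that leave the 10 genes out. In the list of 25 granule and cytosol genes, 2 of 7 tested were called higher against GFP (Lcn2 and Prtn3), 0 lower and 18 did not pass the filter. Over all genes tested, 1.95% were called higher and 3.36% either way. The median log2 fold change of the 7 was 0.78, against -0.01 over all genes tested. Lcn2 and Prtn3 were among the 7 only through the miR-34b/c group, as given below, so nothing is read from this median. Prtn3, which encodes proteinase 3, was at 1.98, 1.61, 0.388, 4.90, 12.0, 0 and 0.316 CPM in GFP and 93.5, 98.2, 57.8, 66.8, 25.7, 21.1 and 29.6 CPM in miR-34b/c libraries. All 7 miR-34b/c libraries lay above all GFP libraries, with a log2 fold change of 4.05 ± 0.61 (edgeR adjusted p = 0.000776, range over the alternatives 1.86e-05 to 0.0365). Only 2 of the 7 GFP libraries reached the filter's level, so Prtn3 entered this comparison through the group in which it was high, and likewise the comparison of GFP with PBS through PBS. Nothing is read from these 2 calls beyond the values. Against PBS it rose by 1.90 ± 0.46 (adjusted p = 0.00899, or 0.0817 with close pairs summed), and its log2 fold change was -2.15 ± 0.63 between GFP and PBS (adjusted p = 0.0301). The latter was not called without PBS library 1 or 4, without GFP library 1, 2 or 3, with DESeq2 or with close pairs summed, with adjusted p of 0.00286 to 0.183 over the alternatives.

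Lcn2, an iron-carrier-binding protein of neutrophil granules that hepatocytes also make in the acute-phase response, was at 1.63 to 182 CPM in GFP livers. In miR-34b/c livers 1 to 7 it was at 1317, 1298, 927, 881, 115, 642 and 150.3 CPM, with libraries 5 and 7 again inside the range of the other group. Its log2 fold change against GFP was 4.06 ± 0.85 (edgeR adjusted p = 0.0106), in a comparison that it too entered only with the miR-34b/c group, since 6 of 7 GFP libraries reached the filter's level and 7 were needed. Against PBS, where all libraries reached it, Lcn2 rose by 3.54 ± 0.70 (adjusted p = 0.00286). The call against GFP was lost with close pairs summed (adjusted p = 0.111, range over the alternatives 0.000324 to 0.111). Against PBS, 4 of 9 tested granule and cytosol genes were called higher, where 12.2% of all genes tested were called higher and 21.9% either way. Besides Prtn3 and Lcn2 these were Camp (4.22 ± 1.195, adjusted p = 0.0198), which encodes the antimicrobial peptide cathelicidin, and Ifitm6 (2.52 ± 0.76, adjusted p = 0.0262). Camp reached the filter's level in 0 of 5 PBS and 5 of 7 miR-34b/c libraries, and Ifitm6 in 1 and 4. As with Ngp and Retnlg, these genes were tested only through the group in which they were high, and nothing is read from their calls. Both lost the call with close pairs summed (adjusted p = 0.12 and 0.109), Camp also with limma-voom, and Ifitm6 also without PBS library 1, 2, 3 or 5. In the same list, Cebpe, a transcription factor of granulocyte maturation, and Cybb, the catalytic subunit of the phagocyte oxidase, were not called in any comparison, with log2 fold changes of -0.04 ± 0.38 and 0.15 ± 0.16 against GFP.

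The defining neutrophil genes were rare in PBS and GFP livers and were given whatever their values. Ly6g, the surface marker used to sort mouse neutrophils, had 0 counts in all PBS libraries, 3 in all GFP libraries together and 35 in all miR-34b/c libraries together. Ltf, which encodes lactoferrin, had 2 counts in each of the PBS and GFP groups and 154 in the miR-34b/c group, where every library lay above every GFP library. The lowest of these, library 5, was at 0.357 CPM, under the level that 3 counts give, so there the separation rests on very few counts. Camp, Elane and Mpo, of which the last are made by promyelocytes of the marrow, had 11, 4 and 3 counts in GFP and 407, 33 and 56 in miR-34b/c livers. Libraries 1 and 2 held 58.8% of the group's summed CPM for Ly6g, 77.0% for Ltf, 87.2% for Camp, 84.5% for Elane and 74.7% for Mpo. By exact two-sided permutation over samples, with adjustment over all 4341 genes left out by the filter that had 10 or more counts, Ltf reached the smallest p the design allows (0.000583, adjusted p = 0.158, higher in 7 of 7). For Camp the exact permutation p was 0.00466 (adjusted p = 0.253), for Ly6g 0.00991 (adjusted p = 0.33), for Elane 0.0181 (adjusted p = 0.38) and for Mpo 0.0373 (adjusted p = 0.446). Of 16 such granule and cytosol genes 0 passed the adjusted threshold and 11 had an unadjusted p under 0.05, all of them higher, where 9.86% of all genes so tested had one and 0 passed. Many of these 16 reached 10 counts only through the miR-34b/c group, so nothing is read from the direction or the number of those p-values. Without the filter edgeR called 15 listed genes of the 4 lists against GFP rather than 6.

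**Figure D3:**
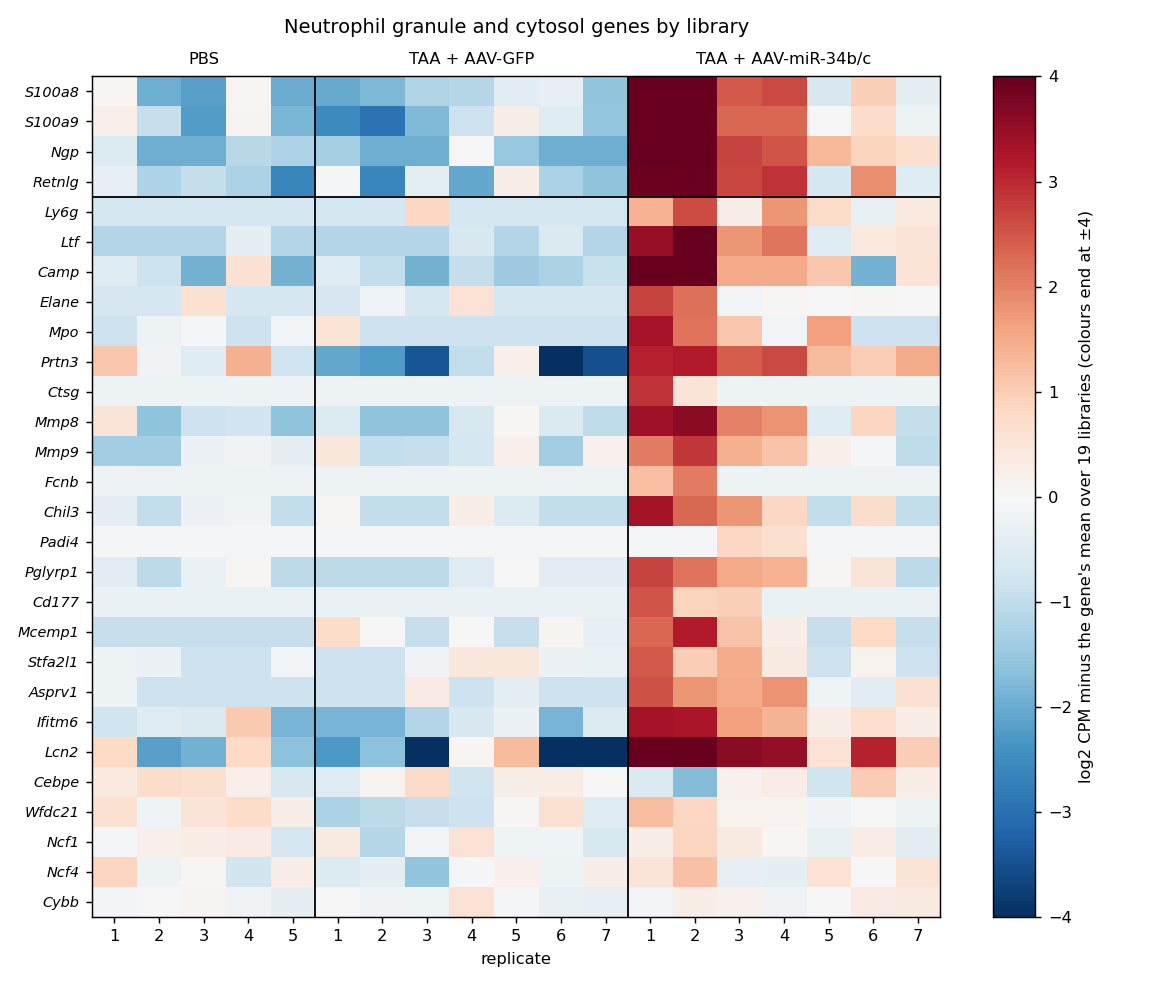
Log2 CPM of the 4 granule and cytosol genes of the set (above the line) and of 24 of the 25 listed ones in every library, each minus the gene's own mean over the 19 libraries. miR-34b/c libraries 1 and 2 are high in most rows, 3 and 4 less so, and Cebpe and Cybb show no such pattern.

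Among 20 surface receptors, 0 of 3 tested were called between miR-34b/c and GFP (1 at an unadjusted p under 0.05). Over all 9252 genes tested, 3.36% were called and 1414 had an unadjusted edgeR p under 0.05. Itgam, the integrin subunit CD11b of neutrophils and monocytes, had a log2 fold change of 1.53 ± 0.47 against PBS (edgeR adjusted p = 0.0278), with 5 of 7 libraries above all PBS libraries. It too was tested only through the miR-34b/c group, since 1 of 5 PBS libraries reached the filter's level. The call was lost without PBS library 2, 3, 4 or 5 and with close pairs summed (adjusted p = 0.109). Against GFP it did not pass the filter, and its mean log2 CPM was higher by 1.51 (exact permutation p = 0.00117, adjusted p = 0.181), with 6 of 7 libraries above all GFP libraries. Of 16 low receptors so tested against GFP, 13 were higher on average, 3 had an unadjusted p under 0.05 (2 higher, and Cxcr4 lower) where 9.86% of all genes so tested had one, and 0 were called. Some of these 16, such as Ccr1 and Trem1, reached 10 counts only through the miR-34b/c group. Nothing is therefore read from the direction of these receptors or from the number of those p-values. Fcgr3 and Fcgr4, receptors for immunoglobulin G that macrophages share with neutrophils, fell by 1.09 ± 0.24 and 1.05 ± 0.24 between GFP and PBS (adjusted p = 0.00638 and 0.00921). Both lost the call with close pairs summed (adjusted p = 0.0804 and 0.0784). The chemokine receptor Cxcr1 had 0 counts in all 19 libraries.

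Among 20 attractants, growth factors and endothelial adhesion molecules, 7 were tested and 0 were called in any of the 3 comparisons by edgeR. Over all genes tested, 12.7% were called between GFP and PBS, 21.9% between miR-34b/c and PBS and 3.36% between miR-34b/c and GFP. In that order, 2828 of 9522, 3427 of 9290 and 1414 of 9252 genes had an unadjusted edgeR p under 0.05. Of the 7, such a p was reached by 2 between GFP and PBS and by 1 in each of the others, so nothing is read from these numbers. Between GFP and PBS these were Mif, a macrophage cytokine that also binds Cxcr2 (0.42 ± 0.16, adjusted p = 0.0915), and Csf1, the macrophage growth factor (0.96 ± 0.44, adjusted p = 0.149). Between miR-34b/c and PBS it was Alox5ap, of leukotriene synthesis (1.26 ± 0.48, adjusted p = 0.0693), and between miR-34b/c and GFP it was Mif (-0.31 ± 0.14, adjusted p = 0.281), all by edgeR on the log2 scale. The adhesion molecules Icam1 and Vcam1, to which neutrophils bind on endothelium, had log2 fold changes of 0.20 ± 0.24 and 0.16 ± 0.27 against GFP. Cxcl3, a further ligand of Cxcr2, and the growth factor genes Csf3 and Csf2 and the cytokine gene Il17a had 0 counts in all 19 libraries. A count of 0 allows up to 3 counts per library, or 0.608 to 1.33 CPM. Cxcl5, another Cxcr2 ligand, had at most 2 counts in a library. Ppbp, a platelet chemokine that also binds Cxcr2, had at most 6 counts in a library.

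In the interleukin 1 pathway, 12 of 20 genes were tested in each comparison, and calls went both ways. Against GFP, 2 were called higher and 2 lower, where 3.36% of all genes tested were called and 1.95% called higher. The median log2 fold change was 0.29 over the 12. Il1r1, the signalling receptor, was at 15.9 to 54.8 CPM in GFP and 41.1 to 149 CPM in miR-34b/c livers, a rise of 1.46 ± 0.30 (edgeR adjusted p = 0.00993). Il1rn, which encodes the receptor antagonist, had a log2 fold change of 1.60 ± 0.41 against GFP (adjusted p = 0.034), with 6 of 7 GFP libraries at the filter's level where 7 were needed. Against PBS, where 1 of 5 PBS libraries reached that level, its log2 fold change was 2.34 ± 0.43 (adjusted p = 0.00182). Il1rn was thus tested in both comparisons only through the miR-34b/c group, and nothing is read from these calls. Il1rap, the co-receptor subunit, fell by 0.75 ± 0.19 against GFP (adjusted p = 0.0344) and by 0.95 ± 0.20 against PBS (adjusted p = 0.0039). Nfkbia, an inhibitor of NF-κB that is itself an NF-κB target, fell by 0.77 ± 0.15 against GFP (adjusted p = 0.00653), with all 7 libraries below all GFP libraries. Between GFP and PBS, a comparison with the same GFP libraries, Nfkbia rose by 0.72 ± 0.20 (adjusted p = 0.0225). That call was lost without PBS library 1 or 4 and with close pairs summed (adjusted p = 0.144).

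The calls against GFP differed in how far they rested on single libraries. Il1r1 and Nfkbia passed in 14 of 14 fits with 1 library left out, and lost the call with close pairs summed (adjusted p = 0.0662 and 0.194), Nfkbia also in the replicate block. Il1rn passed in 6 of 14, not without GFP library 1, 2, 3 or 5 or miR-34b/c library 1, 3, 4 or 6 (adjusted p 0.00347 to 0.175 over the alternatives). Il1rap passed in 3 of 14, namely without GFP library 3 or 4 or miR-34b/c library 1 (adjusted p 0.00343 to 0.136). Il1rn and Il1rap were also not called in the replicate block or with close pairs summed, Il1rn with limma-voom, and Il1rap with no filter on low counts. Against PBS, Il18, a cytokine of the same family, fell by 1.09 ± 0.22 in miR-34b/c livers (adjusted p = 0.00358) and by 0.91 ± 0.21 in GFP livers (adjusted p = 0.0086, or 0.0687 with close pairs summed), which share the PBS libraries. The kinase genes Irak4 and Irak2 rose by 0.90 ± 0.27 (adjusted p = 0.0268) and fell by 0.68 ± 0.22 (adjusted p = 0.0338) against PBS. Irak4 lost the call without PBS library 1, 2 or 4 or miR-34b/c library 3 or 4, and Irak2 without PBS library 1, 4 or 5 or miR-34b/c library 5, 6 or 7. Both also lost it with close pairs summed (adjusted p = 0.103 and 0.131) and in the replicate block, Irak4 with scaling by library size alone, and Irak2 with no filter and with all groups in one fit. The members Il1b and Il1r2 of this pathway are given above.

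**Figure D4:**
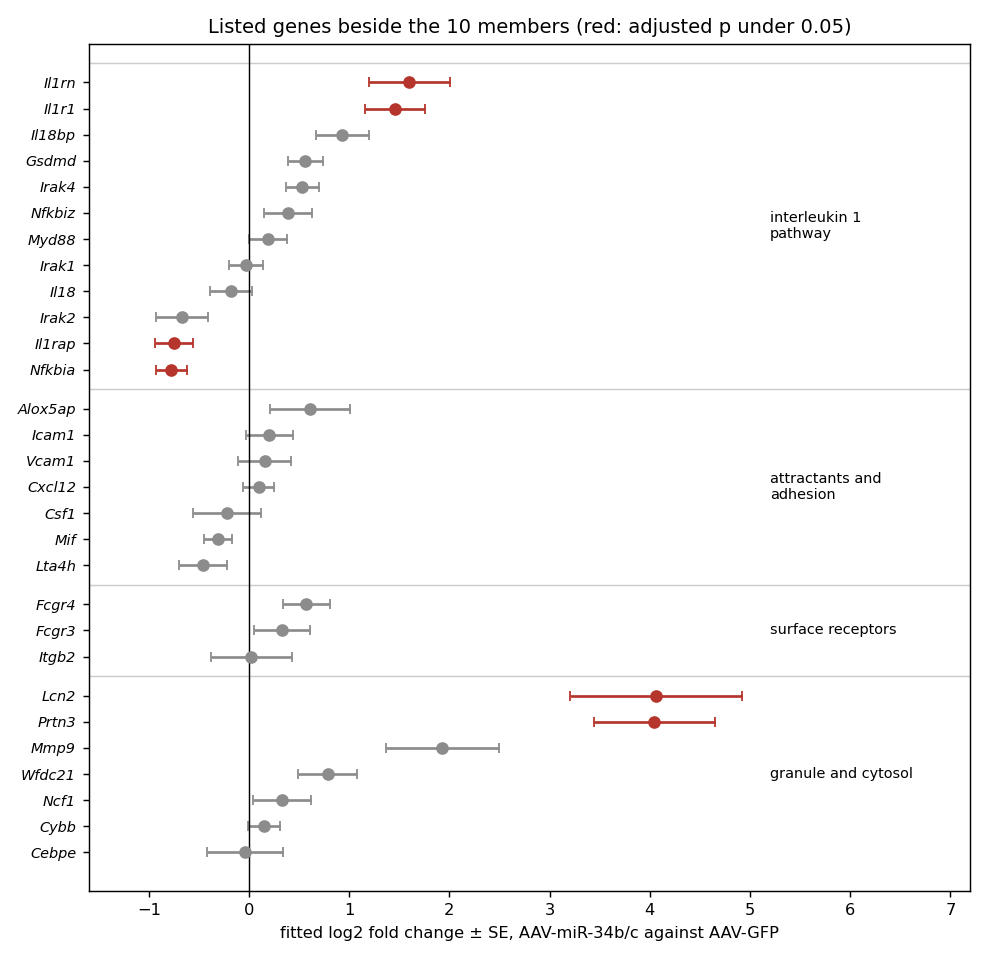
Fitted log2 fold changes with standard errors between miR-34b/c and GFP livers for the 29 listed genes that passed the filter, grouped by list. Those past an adjusted p of 0.05 (edgeR) are red: Lcn2, Prtn3, Il1rn and Il1r1 above 0, Il1rap and Nfkbia below it.

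Marker genes of other cells were measured beside these results. Over all genes tested, 3.36% were called between miR-34b/c and GFP and 12.7% between GFP and PBS. The 9 neutrophil markers outside the set had a summed level of 28.4 to 256 CPM in miR-34b/c livers, 1.95 to 16.8 in GFP and 8.08 to 34.6 in PBS livers. Monocyte markers other than Fn1, which hepatocytes also make, summed to 22.7 to 76.1 CPM in miR-34b/c, 20.6 to 41.7 in GFP and 26.6 to 49.4 in PBS livers. The highest of these were miR-34b/c libraries 1 and 2, and 1 gene of that list, Chil3, is also in the granule list. Of 11 Kupffer cell and macrophage markers, 2 of 10 tested rose and 0 fell against GFP, with summed levels of 571 to 828 CPM against 382 to 623. In PBS livers they summed to 474 to 858 CPM, and 5 of 11 tested fell and 0 rose between GFP and PBS, a comparison with the same GFP libraries. Haemoglobin and other erythroid markers, a measure of blood left in the tissue, summed to 191 to 399 CPM in miR-34b/c, 163 to 806 in GFP and 108 to 375 in PBS livers, and were highest in GFP library 3, where S100a8 was at 13.6 CPM. Platelet markers summed to 2.14 to 10.2 CPM and B and T cell markers to 3.41 to 7.499 CPM in miR-34b/c livers, inside or near the ranges of the other groups. Hepatocyte markers summed to 56787 to 89732 CPM in miR-34b/c and 67036 to 77320 in GFP livers, and 0 of 8 were called between them. Liver endothelial markers summed to 226 to 277 CPM in miR-34b/c, 161 to 219 in GFP and 192 to 242 in PBS livers, without overlap between miR-34b/c and GFP, and 1 of 6 tested was called higher and 0 lower against GFP. Stellate cell markers summed to 259.98 to 559.9 CPM (median 342) in miR-34b/c, 393 to 537 (median 497) in GFP and 384 to 619.6 (median 501) in PBS livers, and 0 of 7 tested were called higher and 2 lower against GFP. The stellate sum was highest in miR-34b/c libraries 1 and 2 within that group, and the other 5 lay below every GFP library. The part of any of these cells or of blood in the levels of the 10 genes was not tested.

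For the 6 genes with a mean of 10 or more counts, the genes whose levels were most alike were sought over the 19 libraries among 9421 genes, after the mean of each group was subtracted. These correlations are descriptions, and the points share the groups of close libraries above. S100a8 was most like S100a9 (r = 0.95), then Ambp and Orm1 (r = 0.95 and 0.94), which encode plasma proteins made by hepatocytes. S100a9 was next most like Cpb2 and Fgg (r = 0.94 for both), again plasma proteins of hepatocytes. Ngp was most like Sdc1, Cd63 and Vcam1 (r = 0.92, 0.90 and 0.89), and Retnlg like the neutrophil collagenase gene Mmp8, then Orm3 and Rasgrp2 (0.88, 0.86 and 0.83). Cxcl1 was most like Snhg11, Hspa1b and Irf2bp2 (0.90, 0.82 and 0.82). Il1b was most like Gm31583, Sult1b1 and AI464131 (0.78, 0.78 and 0.77).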

How the data were processed

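Libraries were made by a 3′ mRNA sequencing provider from total liver RNA and read single-end on a NovaSeq. The authors deposited raw counts per Ensembl gene for 19 libraries. STAR and mm10 are named in the submitters' processing notes. The strand setting, the use of molecular identifiers and the annotation release are not given in the sources used here. Gene symbols were matched from GENCODE or the reference gene tables, and symbols were found for 30934 of 31053 identifiers.

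Counts were fitted for each pair of groups by edgeR 4.0.16 (R 4.3.3) with TMM scaling, filterByExpr (minimum count 10, minimum total 15) and the quasi-likelihood test, with Benjamini-Hochberg adjustment over all genes tested and a threshold of 0.05. CPM were scaled by TMM over all libraries, and log2 CPM had a prior count of 2. Genes that did not pass the filter were compared by the exact permutation test (scipy 1.17.1), adjusted over all such genes with 10 or more counts in each comparison, in place of over the listed genes in the 3 comparisons as planned. Count ratios carry exact 95% intervals for counting error. The fits were tested on simulated data. The 10 genes and all lists were chosen with earlier results of these data known. Members' levels and fold changes are described, and their calls are only counted beside those of all genes. Listed genes carry adjusted p-values, which are not independent of that choice. Genes outside the set were named by a rule: of the called genes, at most the 3 with the smallest adjusted p-values in each direction per list and comparison, and Ly6g, Ltf, Camp, Elane and Mpo always. Listed genes named without a call were chosen after their values were seen. Names of 4 pathway lists and 8 cell type lists were used. The labels call the libraries biological replicates without naming animals, so p-values measure the spread between these samples. Other alternatives were DESeq2 1.42.0 and limma 3.58.1. Promoter and microRNA sequences are from RefSeq. Of the granule list, 1 gene is left out of the heatmap and not reported here, though it is counted in the list.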

Additional observations from a re-analysis of the deposited data

Results flagged for a closer look

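Among 33 sets of values, each 1 gene or the total count in 1 group, 3 had a library far from the others of its group (Dixon's criterion), where chance alone would give about 1.65. Ngp in GFP livers was highest in library 4, at a log2 CPM of 1.24 (6 counts) with the next at -0.06. Il1b in GFP livers was lowest in library 4, at a log2 CPM of 0.83 (4 counts) with the next at 2.39. The total count in GFP livers was highest in library 5, at 4383805 with the next at 3239809. None of the miR-34b/c values of the 10 genes was so placed. The criterion sets the most extreme library against the next one, so it cannot flag 2 high libraries that lie together, such as miR-34b/c libraries 1 and 2.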

How the results depend on the processing

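Each library left out in turn gave 689 to 1859 genes called between GFP and PBS (1212 with all), 1267 to 2695 between miR-34b/c and PBS (2037 with all) and 209 to 344 between miR-34b/c and GFP (311 with all). Counts fell by more than 1.5 times without PBS library 1 or 4 (728 and 689 for GFP, 1328 and 1267 for miR-34b/c) and without GFP library 3 (806), and rose without GFP library 6 (1859). Of the 10 genes, 0, 3 to 5 and 3 to 5 were called in those fits, with 3 against PBS without miR-34b/c library 3 and 5 against GFP without miR-34b/c library 7. Of the listed genes 3 to 7 were called between GFP and PBS, with 3 without PBS library 4. In the order GFP against PBS, miR-34b/c against PBS and miR-34b/c against GFP, summing close pairs gave 193, 331 and 69 genes, 0, 2 and 3 of the 10, and 1, 4 and 1 listed genes. In the same order limma-voom gave 2687, 3839 and 813 genes, with 9 listed genes in the first. DESeq2 gave 542 genes and 10 listed in the last. With no filter on low counts 8, 20 and 15 listed genes were called, and with 10 counts in every library 3 of the 10 against PBS and 3 listed against GFP. The fit of all groups together gave 11 listed against GFP. Without miR-34b/c libraries 1 and 2, an alternative added after the data were seen, 3878 and 720 genes and 3 and 3 of the 10 were called. Scaling by library size alone gave a median log2 fold change over all genes of -0.20 against GFP, in place of -0.01. Against PBS it gave -0.13 in place of 0.02. With that scaling 119 genes were called higher and 505 lower (624 in all) against GFP, in place of 180 and 131. Against PBS 730 were higher and 1616 lower, in place of 1131 and 906. The causes were not tested.

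The replicate numbers do not pair the mice: same-numbered libraries had correlations of -0.28 to 0.28 over the 3 comparisons, and 2 of 5, 0 of 5 and 1 of 7 resembled their own number best. With the replicate block 3136, 945 and 142 genes, 8 listed between GFP and PBS and 3 listed and 0 of the 10 between miR-34b/c and GFP were called. Of 15 fold changes of the 10 genes, 13 kept their sign in every alternative, and the exceptions were S100a8 and Cxcl1 between GFP and PBS, which were not called. The depth limits the receptors and Cxcl2, whose libraries held few counts.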

Other observations

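The listed genes below were chosen after their values were seen, and compare miR-34b/c with GFP livers where no group is named. Cxcr4, the receptor that retains neutrophils in the marrow and is also expressed by many other leukocytes, was lower by 1.03 in mean log2 CPM (exact permutation p = 0.00117, adjusted p = 0.181), with 6 of 7 libraries below all GFP libraries. Between GFP and PBS Cxcr4 was higher by 2.03 without overlap (exact permutation p = 0.00126, adjusted p = 0.126). That is the smallest unadjusted p the design allows, and 0 of all genes so tested passed the adjusted threshold. Both comparisons use the same GFP libraries. Fpr1, a receptor for bacterial peptides, was higher by 1.03, with 6 of 7 libraries above all GFP libraries (exact permutation p = 0.00408, adjusted p = 0.253). Wfdc21, listed as a neutrophil gene, was at 1736 ± 916 CPM (SD, n = 7) in GFP, 3005 ± 1275 (n = 7) in miR-34b/c and 3086 ± 706 (n = 5) in PBS livers, and was not called between any of the groups. Ctsg, Fcnb, Padi4 and Cd177, granule and surface genes of neutrophils, had 0 counts in all PBS and GFP libraries and 15, 9, 3 and 16 counts in all miR-34b/c libraries together. Those counts came from 2 of 7 libraries for Ctsg, Fcnb and Padi4 and from 3 of 7 for Cd177. The exact permutation p was 0.462 for Ctsg (adjusted p = 0.864) and 0.192 for Cd177 (adjusted p = 0.687). Fcnb and Padi4 had too few counts for that test.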
